A study of Mus musculus with 9 samples.

Results

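The comparison described here sets mouse hippocampus exposed to perfluorooctane sulfonate (PFOS) in the second postnatal week against hippocampus exposed in the first. PFOS is a persistent fluorinated surfactant that passes into milk. In the samples labelled PFOS P1-7, nursing dams received PFOS by gavage at 1 mg/kg per day on postnatal days 1 to 7, and in those labelled PFOS P8-14 on days 8 to 14, so that the pups took it up by suckling. All animals were wild-type mice, the controls were sham-treated, and every hippocampus was taken on day 21 for sequencing of poly(A) RNA. Of the 9 samples in the series, 6 belong to the comparison, 3 for each window, and the 3 controls are given alongside.

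The labels do not say whether samples are separate pups, and give neither sex, litter nor strain, so that the p-values measure only the spread between these samples, which may be technical. They also do not tie an exposure window to a separate control, so both windows are read against the same 3 controls. The time from the last dose to the day 21 harvest was longer for days 1 to 7 than for days 8 to 14. The age at dosing and the time since the last dose therefore cannot be told apart. The days are those on which dams were dosed, and how long the pups went on taking up PFOS is not known here. Values are TPM, transcript abundances scaled for gene length and library total. Differences are log2(TPM + 1) in PFOS P8-14 minus PFOS P1-7, so a negative value means a lower level after late exposure. In bulk tissue, fewer cells of a type and less RNA per cell cannot be told apart.

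The hippocampus holds granule neurons of the dentate gyrus and pyramidal neurons of the CA fields. In both, firing and calcium entry switch on immediate early genes within minutes. The first of these encode transcription factors such as Fos, Egr1 and Nr4a1. Others encode synaptic effectors such as Arc, and phosphatases that switch off the kinase signal that induced them. Many carry cyclic AMP response elements, bound by CREB, or serum response elements near the start of transcription.

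No gene separated the windows at an adjusted p under 0.05 in limma. Of 14336 genes tested, 0 were called (0%), the smallest adjusted p was 0.9998, and 158 had an unadjusted p under 0.05 (1.10%). Of these, 91 were lower in PFOS P8-14 (0.635% of genes tested) and 67 were higher (0.467%). Genes whose 3 late-exposed libraries all lay below the 3 early-exposed ones numbered 595 (4.15%), and those all above numbered 273 (1.90%).

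The excess of lower values depended on scaling. Among genes with an unadjusted p under 0.05, 57.6% were lower in PFOS P8-14. That share was 40.3% after median-of-ratios scaling, 37.6% after quantile normalization and 40.6% after removal of the trend with transcript length and GC content. Over all genes the median difference was -0.03 and 61.2% were lower, against 52.6%, 52.4% and 51.2% lower under the same 3 settings.

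The differences were small for most genes. The median absolute difference was 0.07 on the log2 scale, and 95% of genes differed by less than 0.28. Standard errors (SE) had a median of 0.13, and 95% confidence intervals a median half-width of 0.29. The interval lay wholly within a 1.5-fold difference, in either direction, for 11724 genes (81.8%). For the other genes the data do not exclude a 1.5-fold difference between the windows.

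**Figure D1:**
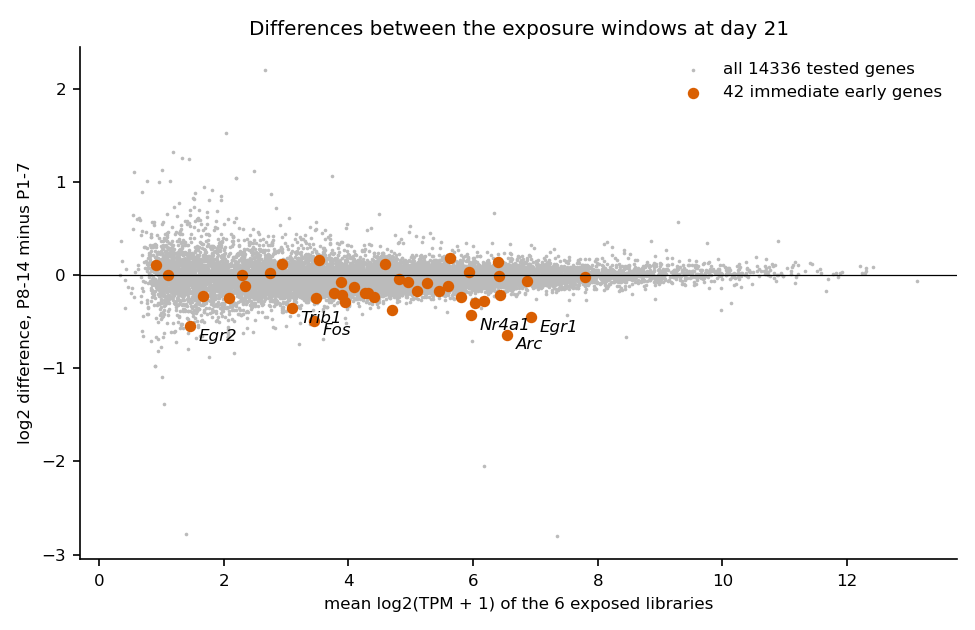
Each point is a gene, with its mean log2(TPM + 1) over the 6 exposed libraries on the x axis and its log2 difference, PFOS P8-14 minus PFOS P1-7, on the y axis. Orange points are the 42 immediate early genes, of which 33 lie below 0, with Arc at -0.64.

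Each library was recognisable as hippocampus, with Prox1, a dentate granule neuron transcription factor, at 17.1 to 51.5 TPM and Wfs1, a CA1 pyramidal marker, at 122 to 233 TPM. Prox1 was at 49.7, 27.4 and 17.1 TPM in control replicates 1 to 3 and at 40.2 to 51.5 TPM in the exposed libraries. Although the labels give no sex, every library had the male pattern of sex-linked RNA. The Y-linked Ddx3y was at 23.1 to 36.1 TPM, and Xist, made from the inactive X chromosome, was at 0 to 0.03 TPM. Choroid plexus RNA varied between libraries within every group. Ttr, the transthyretin made by choroid plexus epithelium, was at 9446 to 11626 TPM in 5 libraries and at 35.1 to 107.7 TPM in the other 4. Each window had replicates of both kinds: PFOS P1-7 replicate 2 and PFOS P8-14 replicate 3 were low, and the other exposed libraries were high. The summed level of the 26 choroid plexus markers was 240.8 to 13390 TPM in PFOS P1-7, 330.7 to 11490 in PFOS P8-14 and 223 to 11340 in control. Differences are therefore also given within Ttr-high libraries and within Ttr-low libraries, where the latter compare a single library per window and carry no test.

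Among the gene lists, the immediate early genes had the most members at an unadjusted p under 0.05 between the windows (limma). All 42 listed members were tested, and 33 were lower and 9 higher in PFOS P8-14, beside 61.2% and 38.8% of all genes. Their median difference was -0.17, beside -0.03 for all genes tested. Without overlap between the windows, 8 of the 42 were lower and 1 higher, beside 4.15% and 1.90% of all genes. By share this did not set the list apart. Interferon-stimulated and antigen presentation genes had 6 of 28 lower without overlap and a median of -0.20, and dentate granule neuron markers had 4 of 20. At an unadjusted p under 0.05, a count chosen after the data were seen, 9 members were lower (beside 0.635% of all genes) and 0 were higher. Of 41 lists of pathways and cell type markers, 1 had 2 or more members past that p, and it was this list. The lists were chosen with earlier results of these data known, so its place among them is a description.

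The 9 were Nr4a1, Arc, Egr1, Trib1, Fos, Dusp5, Junb, Dusp6 and Egr2, none of which passed after adjustment (adjusted p = 0.9998). Their late-exposed means differed from control by -0.06 (Egr2) to 0.15 (Nr4a1) on the log2 scale, and their early-exposed means lay above both. Since the 9 were picked for high early-exposed against late-exposed values, their place against control is a description. Neither comparison with control called a gene at an adjusted p under 0.05 (0 genes in both, limma).

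The upstream sequences of 3 of these genes are printed to show TGACG, the core of the cyclic AMP response element, and were picked for holding it. RefSeq windows were found for 6 of the 9 genes, and 5 of those held TGACG (Dusp5, Egr2, Fos, Junb and Nr4a1) while Dusp6 did not. Of the 33 other immediate early genes, 25 had a window and 15 held it. They are the 250 bases before the RefSeq start of transcription in build GRCm38.p6, on the coding strand. Nr4a1 is at chr15:101266596-101266845, Fos at chr12:85473640-85473889 and Junb at chr8:84978749-84978998 on the minus strand. Capitals mark TGACG or its reverse complement CGTCA.
Nr4a1: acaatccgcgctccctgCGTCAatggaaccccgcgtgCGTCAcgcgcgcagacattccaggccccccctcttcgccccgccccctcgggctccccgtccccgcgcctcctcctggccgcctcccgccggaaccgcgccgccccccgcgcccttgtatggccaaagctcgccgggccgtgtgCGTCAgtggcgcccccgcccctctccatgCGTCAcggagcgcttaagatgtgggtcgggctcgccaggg
Fos: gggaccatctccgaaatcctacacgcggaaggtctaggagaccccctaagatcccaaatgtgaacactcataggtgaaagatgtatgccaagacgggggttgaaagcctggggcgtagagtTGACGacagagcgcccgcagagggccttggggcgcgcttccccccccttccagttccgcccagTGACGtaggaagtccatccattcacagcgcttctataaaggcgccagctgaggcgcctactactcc
Junb: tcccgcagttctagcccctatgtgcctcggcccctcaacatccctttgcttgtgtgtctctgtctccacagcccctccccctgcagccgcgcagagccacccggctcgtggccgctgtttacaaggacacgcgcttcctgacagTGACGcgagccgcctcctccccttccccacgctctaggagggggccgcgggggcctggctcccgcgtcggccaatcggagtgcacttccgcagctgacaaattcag
The Nr4a1 window holds 4 matches, the Fos window 2 and the Junb window 1. RefSeq starts were found for 31 of the 42 immediate early genes, which gave 45 windows, and for 10551 of all tested genes, which gave 13605.

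TGACG, searched on both strands, was in 24 of the 45 immediate early windows (53.3%) and in 25.5% of all windows of the same length. Counted by gene it was in 20 of 31 (64.5%), beside 30% of all genes. The full palindrome TGACGTCA, which contains TGACG, was in 3 of the 45 windows (6.67%) and in 2.51% of all. The CArG box of serum response elements was in 5 (11.1%), all of them windows of Dusp5 and Egr2, and in 1.2% of all. TGANTCA, the AP-1 motif of Fos and Jun proteins, was in 1 (2.22%) and in 4.47% of all. GCGTGGGCG or GCGGGGGCG, motifs of the Egr proteins, were in 6 (13.3%) and in 5.64% of all. These matches describe letters in short windows, not binding, and no link to the differences in level was tested.

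Among the transcription factors, Nr4a1, an orphan nuclear receptor, had the smallest p. Its levels were 60.5, 80.2 and 76.0 TPM in PFOS P1-7 replicates 1 to 3, 57.3, 51.2 and 50.5 TPM in PFOS P8-14, and 49.8, 45.3 and 48.0 TPM in control. The early-exposed libraries lay above all others, and the late-exposed ones above all controls. The difference between the windows was -0.43 (SE 0.109, 95% interval -0.68 to -0.19, unadjusted p = 0.00284). Within Ttr-high libraries it was -0.32 and within Ttr-low libraries -0.66.

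Egr1, a zinc-finger factor of synaptic plasticity, was at 107, 167 and 159.9 TPM in PFOS P1-7, 106, 102 and 102 TPM in PFOS P8-14, and 94.3, 113 and 106 TPM in control. Late-exposed libraries lay within the control range, and early-exposed replicates 2 and 3 stood above the rest. The windows did not overlap, although PFOS P1-7 replicate 1 and PFOS P8-14 replicate 1 were nearly equal. The difference was -0.45 (SE 0.150, unadjusted p = 0.0134).

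Fos, which pairs with Jun proteins to form AP-1, had the same order at a lower level. It was at 9.01, 13.8 and 13.5 TPM in PFOS P1-7, 9.5, 8.41 and 6.85 TPM in PFOS P8-14, and 7.26, 9.27 and 7.23 TPM in control. Its windows overlapped, since PFOS P1-7 replicate 1 lay below PFOS P8-14 replicate 1. The difference was -0.49 (SE 0.18, unadjusted p = 0.0223).

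Its partner Junb was at 69.0, 86.2 and 83.0 TPM after early exposure, 70.6, 60.4 and 64.3 TPM after late exposure, and 61.3, 67.6 and 54.3 TPM in control (difference -0.28, unadjusted p = 0.0326). Egr2 was near the detection filter, at 1.58, 3.3 and 2.34 TPM in PFOS P1-7, 1.63, 1.5 and 0.81 TPM in PFOS P8-14, and 1.31, 1.9 and 1.03 TPM in control (difference -0.55, unadjusted p = 0.0457). For both genes PFOS P1-7 replicate 1 fell inside the range of the late-exposed libraries. The other Fos and Jun genes did not pass: Jun differed by -0.0065 (95% interval -0.33 to 0.31), Fosb by -0.22 and Jund by 0.15.

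Arc, the synaptic effector that drives AMPA receptor endocytosis, had the most negative difference of the list. It was at 84.2, 139.8 and 132 TPM in PFOS P1-7, 85.1, 66.5 and 72.0 TPM in PFOS P8-14, and 69.9, 84.5 and 73.2 TPM in control. Early-exposed replicates 2 and 3 stood above the 7 other libraries, and the remaining early-exposed library lay among the late-exposed ones. The difference was -0.64 (SE 0.179, 95% interval -1.04 to -0.24, unadjusted p = 0.00545), with -0.48 within Ttr-high and -0.95 within Ttr-low libraries.

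The feedback inhibitors among the 9 were Dusp5 and Dusp6, phosphatases of the ERK kinases, and Trib1, a pseudokinase adaptor. Dusp6 was at 58.3, 85.2 and 73.2 TPM in PFOS P1-7, 54.0, 57.1 and 62.3 TPM in PFOS P8-14, and 57.3, 48.6 and 54.0 TPM in control (difference -0.30, unadjusted p = 0.0439). Trib1 was at 7.69, 8.34 and 9.95 TPM in PFOS P1-7, 6.62, 6.6 and 6.33 TPM in PFOS P8-14, and 6.98, 5.53 and 6.67 TPM in control (difference -0.36, unadjusted p = 0.0199). Dusp5 was the exception in the order of early-exposed libraries, at 18.8, 16.1 and 13.8 TPM, beside 13.2, 12.4 and 13.5 TPM in PFOS P8-14 and 13.6, 13.5 and 12.9 TPM in control (difference -0.29, unadjusted p = 0.0316). Trib1 and Dusp5 did not overlap between the windows, and Dusp6 did.

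**Figure D2:**
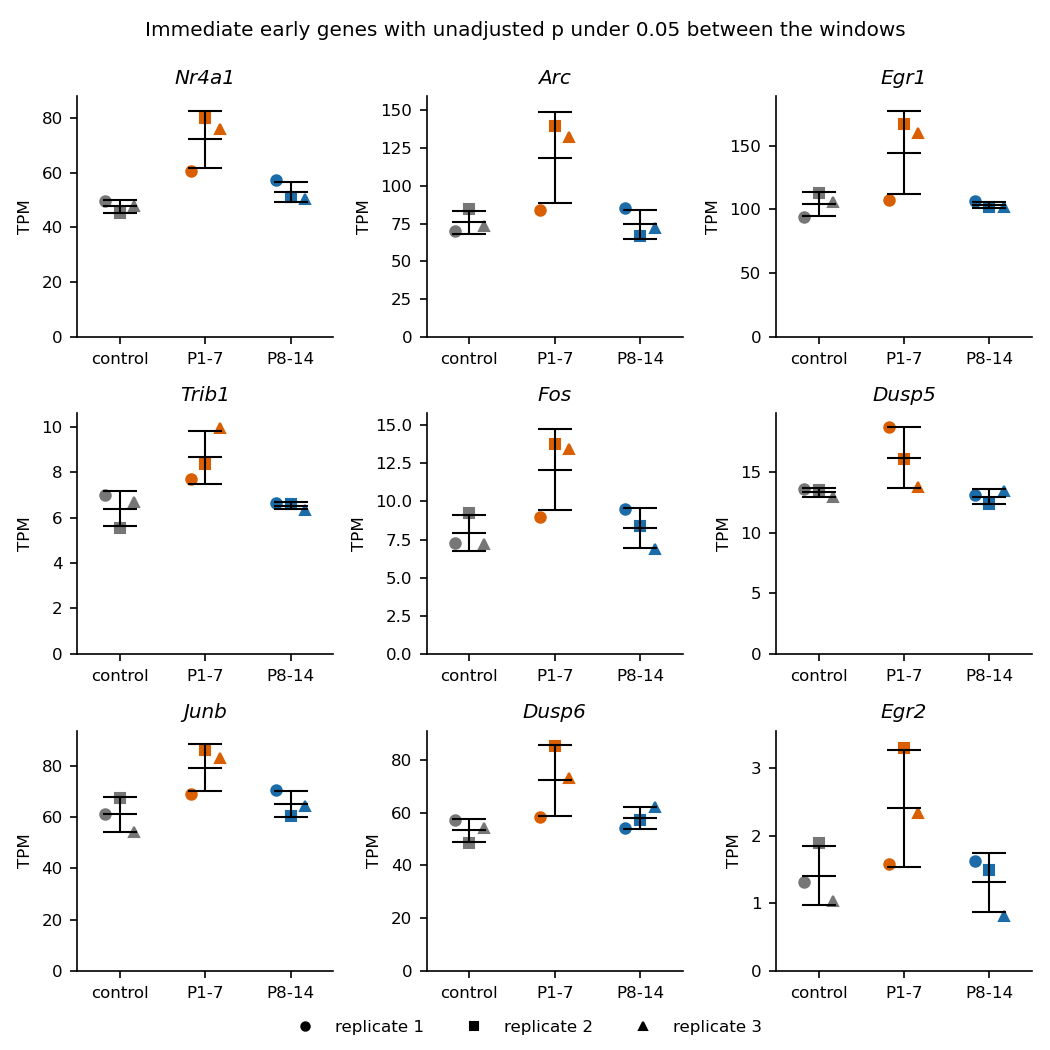
Each panel shows TPM of an immediate early gene in the 9 libraries, by group, with symbols for replicate numbers, a bar at the mean and error bars of 1 SD (n = 3). In 8 of the 9 panels PFOS P1-7 replicates 2 and 3 lie above every other library.

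Other members did not pass, and several were high in both windows. Nr4a3, a nuclear receptor of the same family as Nr4a1, had means of 60.1 ± 7.31 TPM in PFOS P1-7, 51.3 ± 10.9 in PFOS P8-14 and 31.1 ± 15.8 in control (SD, n = 3 each). Its difference was -0.24 with a 95% interval from -0.87 to 0.39. Egr3 had means of 91.7 ± 8.8, 79.1 ± 6.88 and 52.5 ± 21.8 TPM in the same order, and a difference of -0.21 (-0.70 to 0.29). Control replicate 1 lay apart in these genes, at 49.3 TPM for Nr4a3 and 77.6 for Egr3, with the other controls at 22.0 to 22.1 and at 39.96 TPM.

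Ptgs2, the inducible cyclooxygenase, was at 16.6, 16.4 and 17.2 TPM in PFOS P1-7, 14.2, 15.4 and 16.2 TPM in PFOS P8-14, and 12.4, 11.04 and 12.3 TPM in control. Here the 3 groups were stepped with no overlap, yet the windows differed by only -0.13 (unadjusted p = 0.197). Npas4, a neuron-specific factor induced by calcium entry, differed by -0.24 with an interval from -0.79 to 0.31. Bdnf, the neurotrophin, had means of 35.7 ± 4.72 TPM in PFOS P1-7, 31.7 ± 4.37 in PFOS P8-14 and 28.8 ± 0.84 in control, and differed by -0.17 (-0.44 to 0.11). Homer1, a postsynaptic scaffold with an inducible short form, differed by -0.11 (-0.56 to 0.34).

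The immediate early pattern rested on particular libraries. Over the 42 genes, PFOS P1-7 replicate 2 was the highest of the 6 exposed libraries in 21 genes and PFOS P8-14 replicate 3 the lowest in 14. PFOS P1-7 replicate 1 was the lowest early-exposed library in 8 of the 9 genes above. The mean deviation of the list from its average over all 9 libraries was 0.02, 0.23 and 0.15 in PFOS P1-7, 0.04, -0.04 and -0.07 in PFOS P8-14, and -0.05, -0.10 and -0.17 in control. By this measure PFOS P1-7 replicate 1 lay below PFOS P8-14 replicate 1, so the windows overlapped.

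A trend with transcript length across genes also differed between these libraries. Spearman's rho of each library's deviation with transcript length, over the 13457 genes with a matched length, was 0.09, 0.27 and 0.11 in PFOS P1-7, 0.11, -0.09 and 0.17 in PFOS P8-14, and 0.11, -0.27 and -0.31 in control. PFOS P1-7 replicate 2, the highest library of the immediate early list, had the highest rho, and control replicates 2 and 3, its lowest libraries, had the lowest. The 2 orders differed in other libraries. PFOS P8-14 replicate 3 had a rho of 0.17 but the lowest list deviation of the exposed libraries (-0.07). Control replicate 1 had a rho of 0.11 and a list deviation of -0.05. With the trend on length and GC content removed, the median difference of the list between the windows was -0.16 and 9 members were lower at an unadjusted p under 0.05. The part of the trend in the list's differences from control was not tested.

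Leaving out 1 exposed library changed the count of 9 members. It was 13, 3 and 3 without PFOS P1-7 replicates 1, 2 and 3 in turn. Without PFOS P8-14 replicates 1, 2 and 3 in turn it was 8, 5 and 6. The median difference of the list was between -0.25 and -0.12 in these fits. Within Ttr-high libraries the median was -0.08 and within Ttr-low libraries -0.23, the latter from 1 library per window. Both are parts of the same 6 libraries.

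The 42 genes were also read side by side against the shared controls. In PFOS P1-7 their median difference from control was 0.21, with 15 members higher at an unadjusted p under 0.05 and 0 lower, beside 12.5% and 5.79% of all genes. In PFOS P8-14 the median was 0.08, with 4 higher and 1 lower, beside 6.33% and 4.65% of all genes. The same medians over all tested genes were 0.09 and 0.06.

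The 12 genes of smallest unadjusted p that were higher in PFOS P8-14 were Pdcd2, Uxt, Gmfg, Bex1, Gpn2, Tmsb15b2, Sag, Sncg, Tpm2, Gng13, Slc38a5 and Cmtm3. None passed after adjustment. The choice by smallest p favours genes that are low in the early-exposed libraries, so the order of the groups, control included, is given only as a description. In all 12 the windows did not overlap.

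Pdcd2 (chr17:15521575-15527319), a chaperone for a small-subunit ribosomal protein, had the smallest p in this direction. It was at 10.7, 12.99 and 12.5 TPM in PFOS P1-7, 18.6, 18.0 and 16.04 TPM in PFOS P8-14, and 17.3, 16.2 and 16.4 TPM in control. The early-exposed libraries stood below the 6 others. The difference was 0.51 (SE 0.103, 95% interval 0.28 to 0.74, unadjusted p = 6.30e-04), with 0.62 within Ttr-high and 0.28 within Ttr-low libraries.

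Gng13 (chr17:25717172-25719102), a gamma subunit of heterotrimeric G proteins, was below control in both windows and lowest after early exposure. Its levels were 36.5, 32.6 and 34.3 TPM in PFOS P1-7, 52.4, 41.6 and 44.4 TPM in PFOS P8-14, and 67.3, 62.3 and 49.4 TPM in control. The windows did not overlap, and PFOS P8-14 replicate 1 reached the control range. The difference between the windows was 0.41 (SE 0.126, unadjusted p = 0.00938). Against control it was -0.76 in PFOS P1-7 and -0.36 in PFOS P8-14.

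Sncg, gamma-synuclein, was at 9.3, 7.08 and 6.89 TPM in PFOS P1-7, 10.6, 13.4 and 10.4 TPM in PFOS P8-14, and 10.8, 10.2 and 13.8 TPM in control (difference 0.51, unadjusted p = 0.00908). Bex1, a small X-linked signalling adaptor of neurons, was at 113, 118 and 107 TPM in PFOS P1-7, 149, 139 and 128 TPM in PFOS P8-14, and 125, 138 and 131 TPM in control (difference 0.30, unadjusted p = 0.00404). In both genes the late-exposed and control libraries overlapped, with the early-exposed libraries below them.

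Uxt and Sag were the genes of the 12 with every late-exposed library above every control. Uxt, a prefoldin-like chaperone, was at 15.0, 13.9 and 13.5 TPM in PFOS P8-14, beside 9.28, 10.1 and 11.2 TPM after early exposure and 12.7, 10.9 and 12.9 TPM in control (difference 0.43, unadjusted p = 0.00267). Sag, the arrestin of photoreceptors, was at 2.52 to 2.66 TPM in PFOS P8-14, 1.2 to 1.74 in PFOS P1-7 and 1.78 to 2.31 in control. The remaining 6 genes include Slc38a5, a glutamine transporter, at 5.83 ± 0.687 TPM in PFOS P1-7, 8.27 ± 1.12 in PFOS P8-14 and 8.52 ± 1.06 in control. The genes Gmfg, Tmsb15b2 and Tpm2, whose products act on actin or its filaments, had differences of 0.68, 0.36 and 0.60.

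**Figure D3:**
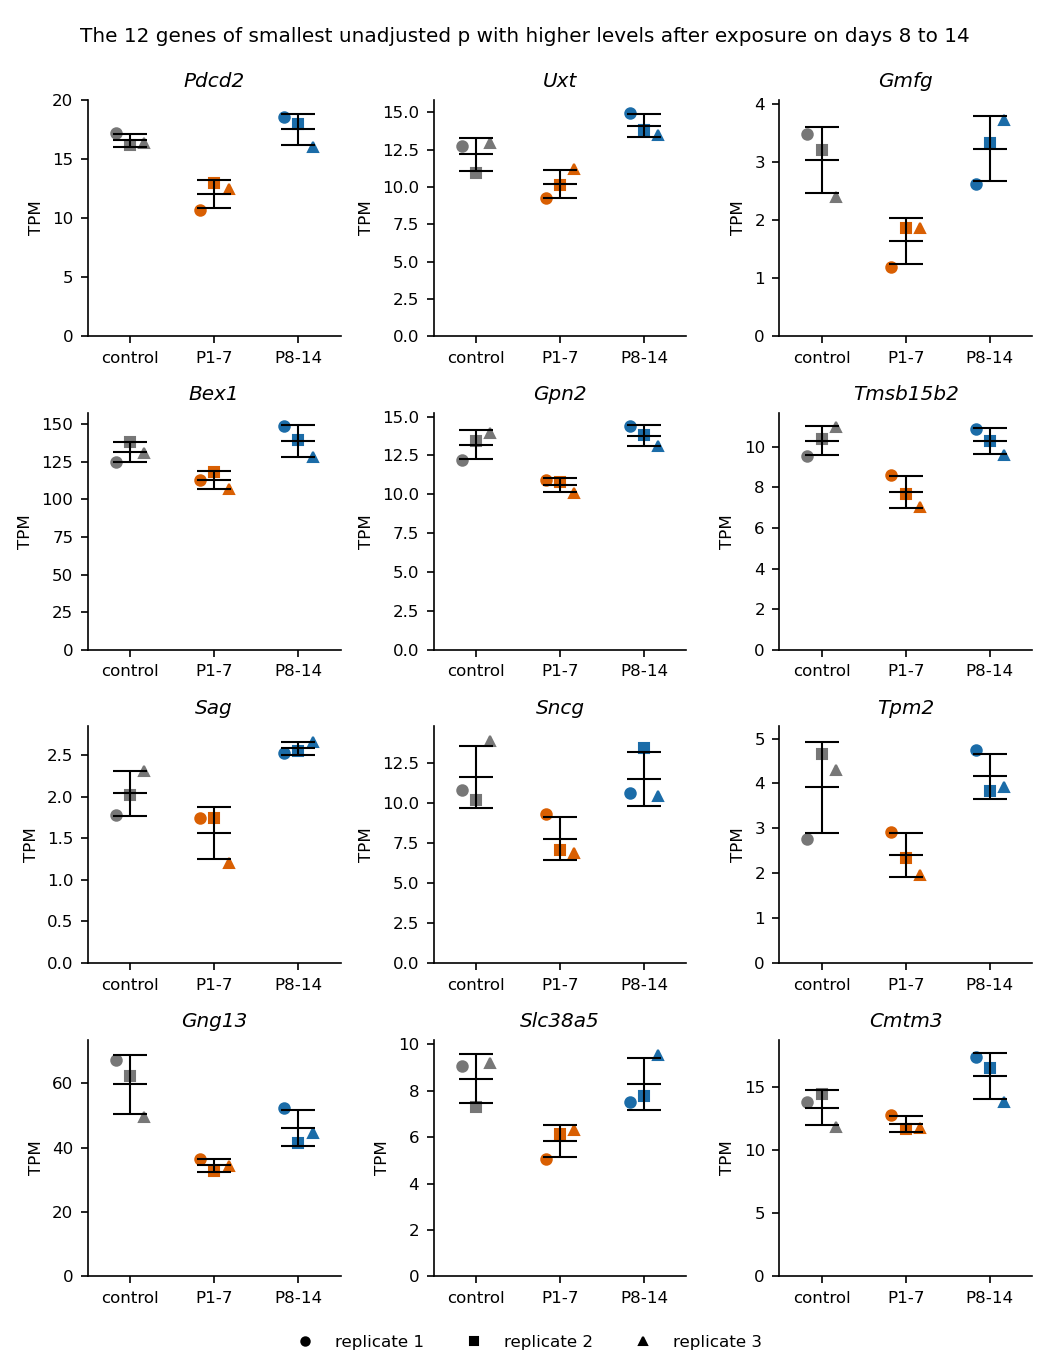
Each panel shows TPM of a gene in the 9 libraries, by group, with symbols for replicate numbers, a bar at the mean and error bars of 1 SD (n = 3). In all 12 panels the 3 late-exposed libraries lie above the 3 early-exposed ones, as the choice by smallest p favours.

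In the other direction, the 12 genes of smallest unadjusted p included the 3 immediate early genes Nr4a1, Arc and Egr1. The windows did not overlap in 11 of the 12. Here too the choice by smallest p in part sets where each window lies against control. The other genes were DXBay18, Samsn1, Tnfrsf25, Adat3, Ccnb2, Rnf185, Nudt21, Ifi47 and Clk1.

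Tnfrsf25 (chr4:152115528-152120119), a death-domain receptor of the TNF family, was at 14.7, 12.8 and 15.2 TPM in PFOS P1-7, 11.1, 8.97 and 8.17 TPM in PFOS P8-14, and 15.7, 22.6 and 18.8 TPM in control. The 3 groups were stepped without overlap, and late exposure gave the lowest levels. The difference between the windows was -0.56 (SE 0.151, unadjusted p = 0.00454). Against control it was -0.39 in PFOS P1-7 and -0.94 in PFOS P8-14.

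Clk1 (chr1:58411988-58424088), a kinase that phosphorylates SR splicing factors, was likewise stepped. It was at 112, 109 and 111 TPM in PFOS P1-7, 98.8, 96.8 and 92.8 TPM in PFOS P8-14, and 115, 129 and 124 TPM in control (difference -0.20, SE 0.0672, unadjusted p = 0.0145). The related kinase Clk4 had no overlap between the windows either and differed by -0.14 (unadjusted p = 0.168). Of the 21 tested splicing kinase and cold-inducible RNA-binding genes, 11 were higher and 10 lower, with a median of 0.01. Rbm3 and Cirbp, the cold-inducible RNA-binding proteins, differed by 0.05 and 0.02.

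Nudt21, a subunit of the factor that selects poly(A) sites, was at 66.8, 65.3 and 71.8 TPM in PFOS P1-7, 54.2, 57.6 and 58.2 TPM in PFOS P8-14, and 57.5, 47.5 and 52.2 TPM in control (difference -0.26, unadjusted p = 0.0136). Early-exposed libraries lay above all others, and late-exposed libraries overlapped control. Ccnb2, a mitotic cyclin, was at 2.01 ± 0.468 TPM in PFOS P1-7, 1.06 ± 0.0794 in PFOS P8-14 and 2.1 ± 0.381 in control (difference -0.54, unadjusted p = 0.0113). Cks2, a subunit of the cyclin-dependent kinases, was at 5.87 ± 0.861, 3.59 ± 1.32 and 6.5 ± 1.9 TPM in the same order (difference -0.61, unadjusted p = 0.0267). Both genes had their lowest mean after late exposure, which their choice for lower late-exposed values favours. Cks2 was at 5.01 TPM in PFOS P8-14 replicate 1 and in control replicate 1.

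DXBay18, on the X chromosome, was at 2.43, 2.13 and 2.36 TPM in PFOS P1-7. It was at 1.05 TPM in PFOS P8-14 replicate 1 and is listed at 0 in the other late-exposed libraries and in all controls. With no counts behind these values, an exact 0 cannot be told from a failed estimate.

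Hippocampal neuron markers formed 4 lists with 80 tested members, of which 53 stayed within 1.5-fold, beside 81.8% of all genes. Dentate granule neuron markers had a median difference of -0.10, with 16 of 20 lower, 4 of them without overlap (beside 4.15% of all genes) and 0 at an unadjusted p under 0.05. For 16 of the 20 the interval stayed within 1.5-fold. The median was -0.13 within Ttr-high and -0.07 within Ttr-low libraries, and -0.05 without PFOS P8-14 replicate 2. The mean deviation of the list was -0.05, -0.03 and -0.43 in control replicates 1 to 3 and -0.07 to 0.18 in the exposed libraries. The part of the low control replicate in differences from control was not tested. Dsp, a desmosome protein of dentate granule neurons, was at 18.3, 17.7 and 18.1 TPM in PFOS P1-7, 15.9, 15.1 and 16.3 TPM in PFOS P8-14, and 12.1, 12.1 and 9.85 TPM in control. Its 3 groups did not overlap, and the windows differed by -0.18 (unadjusted p = 0.101), beside 0.63 and 0.45 for early and late exposure against control.

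CA2 and CA3 pyramidal markers had a median of 0.06, with 18 of 21 higher, but this was 0.22 without PFOS P1-7 replicate 1 and 0.0034 without PFOS P1-7 replicate 2. The interval stayed within 1.5-fold for 14 of the 21. CA1 and subiculum markers had a median of -0.0015, with 9 of 15 within 1.5-fold. GABAergic interneuron markers had a median of 0.03, with 14 of 24 within 1.5-fold and Calb2 highest at 0.67. Astrocyte markers stayed within 1.5-fold for all 26 members, and Gfap, the astrocyte filament, was at 323 ± 9.98 TPM in PFOS P1-7 and 318 ± 14.3 in PFOS P8-14. Myelin genes had 22 of 25 lower and a median of -0.08, which was -0.23 within Ttr-high libraries, 0.16 within Ttr-low libraries and 0.04 without PFOS P1-7 replicate 3. The sign of the myelin median therefore changed with the libraries compared.

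The 161 synapse genes in 5 lists had medians from -0.08 to -0.0026 and 0 members at an unadjusted p under 0.05 in limma, beside 1.10% of all genes, a share at which few of 161 would be called. For 123 of them the interval stayed within 1.5-fold, beside 81.8% of all genes. Postsynaptic density and plasticity genes were lower in 27 of 30, with a median of -0.08 that was -0.01 without PFOS P8-14 replicate 2 and -0.03 without PFOS P1-7 replicate 2. Gria1, an AMPA receptor subunit, differed by -0.04 (95% interval -0.23 to 0.14), and Syt1, the calcium sensor of vesicle release, by -0.03 (-0.26 to 0.21). Grin2a and Grin2b, subunits of the NMDA receptor, varied up to several-fold within each window, and their intervals ran from -1.07 to 2.08 and from -1.34 to 2.49.

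Some genes stood apart from control in both windows at an unadjusted p under 0.05 (limma) and differed little between the windows. None was called against control after adjustment, and both comparisons share the same 3 controls. Rplp1, a stalk protein of the ribosome, had means of 1382 ± 231 TPM in PFOS P1-7, 1409 ± 192 in PFOS P8-14 and 2189 ± 186 in control, a difference between the windows of 0.03. Atp11b, a phospholipid flippase, was at 59.1 ± 2.46, 57.5 ± 2.15 and 41.4 ± 2.35 TPM in the same order (difference -0.04, 95% interval -0.21 to 0.13). The 79 cytosolic ribosomal protein genes had a median of 0.02 between the windows, with 73 within 1.5-fold. Their mean deviation was -0.06, 0.35 and 0.28 in control and -0.17 to 0.01 in the exposed libraries, so control replicate 1 lay in the exposed range. The part of the transcript length trend in these values was not tested. Of 75 nuclear-encoded oxidative phosphorylation genes, 73 were within 1.5-fold too, with a median of 0.03. All 31 proteasome genes were within 1.5-fold.

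Npm3, a nucleolar chaperone, was below control in both windows but lower after early exposure. It was at 19.2, 18.6 and 18.0 TPM in PFOS P1-7, 23.3, 22.4 and 21.0 TPM in PFOS P8-14, and 28.4, 37.7 and 35.8 TPM in control. The 3 groups were stepped without overlap, and the windows differed by 0.24 (95% interval -0.0033 to 0.49, unadjusted p = 0.0526).

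**Figure D4:**
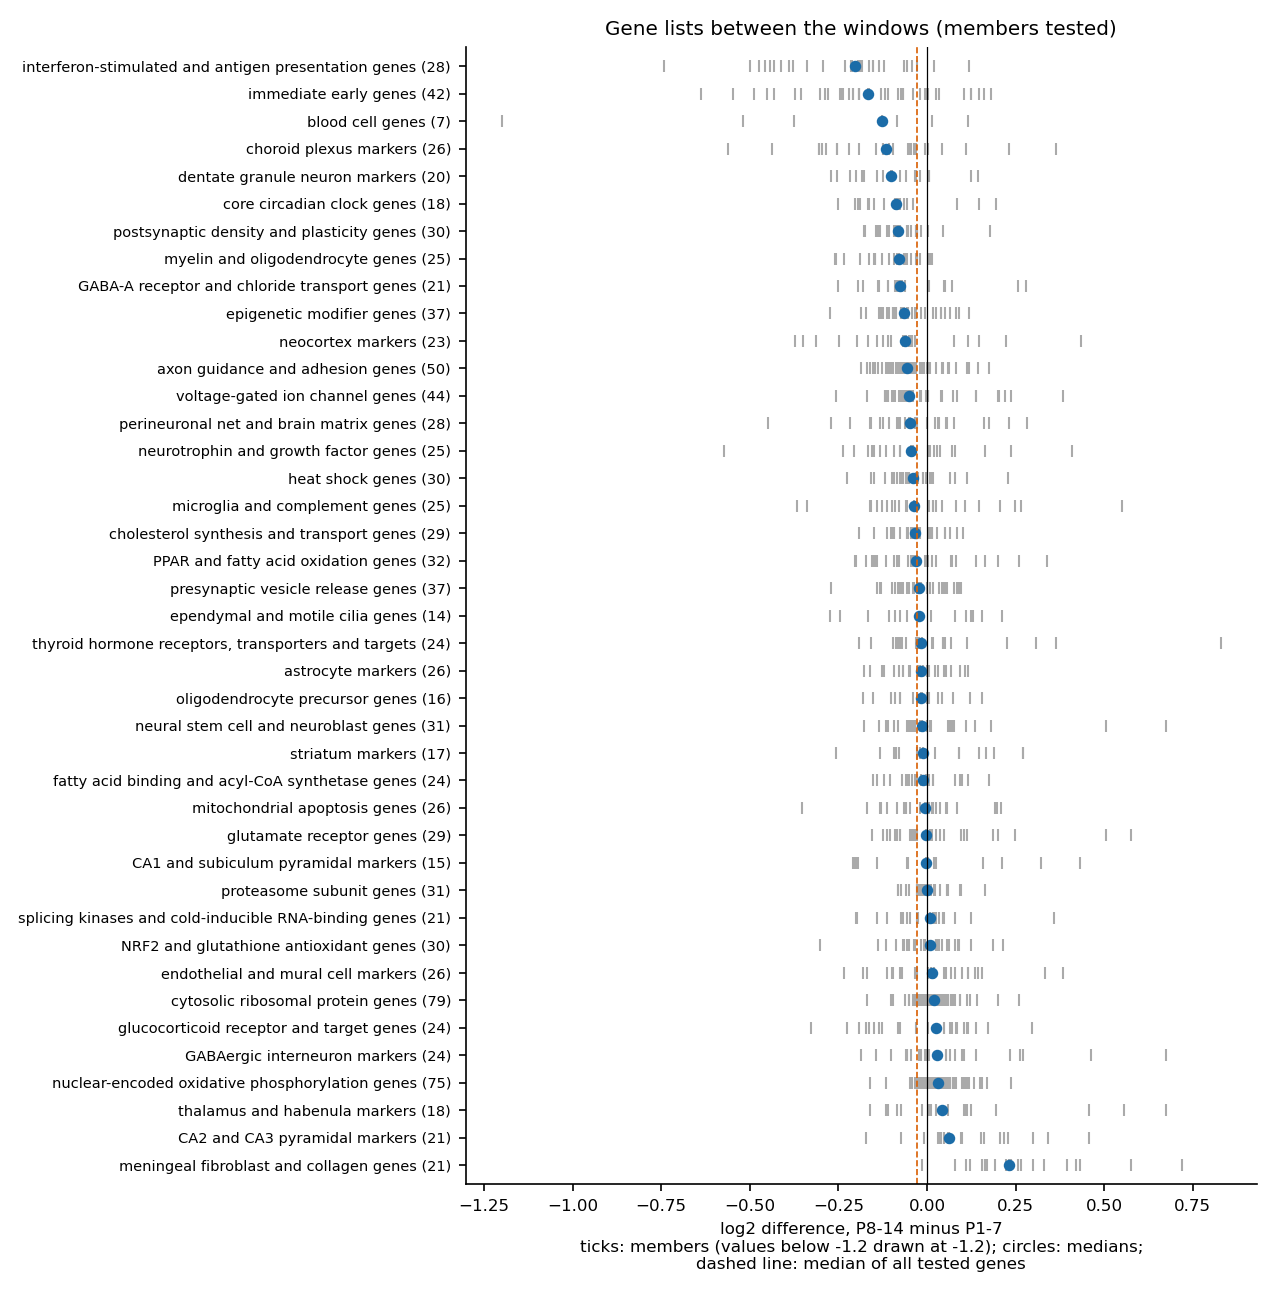
Each line is a gene list, with the number of members tested in brackets; ticks are members' log2 differences (PFOS P8-14 minus PFOS P1-7), circles are medians and the dashed line is the median of all tested genes, -0.03. Medians lie between -0.20 (interferon-stimulated genes) and 0.23 (meningeal fibroblast and collagen genes), and 35 of the 41 are within 0.1 of 0.

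Pathways named with PFOS in earlier work, such as PPAR signalling, thyroid hormone and oxidative stress, gave 8 lists of 219 tested members. Their medians ran from -0.04 to 0.02, and 191 members stayed within 1.5-fold. At an unadjusted p under 0.05, 2 members were higher in PFOS P8-14 (beside 0.467% of all genes) and 0 lower. Fabp3, a fatty acid binding protein, was at 242, 228 and 238 TPM in PFOS P1-7, 278, 265 and 256 TPM in PFOS P8-14, and 263, 281 and 297 TPM in control (difference 0.18, unadjusted p = 0.0343). Endog, a mitochondrial nuclease, was at 29.7, 30.5 and 26.8 TPM in PFOS P1-7, 33.9, 32.7 and 33.5 TPM in PFOS P8-14, and 32.4, 34.4 and 36.4 TPM in control (difference 0.20, unadjusted p = 0.0381). In both genes the early-exposed libraries lay below all others and the late-exposed ones overlapped control.

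Dio3, the deiodinase that inactivates thyroid hormone, was low and scattered, at 2.54, 0.89 and 0.45 TPM in PFOS P1-7, 2.94, 4.08 and 1.72 TPM in PFOS P8-14, and 4.93, 3.51 and 1.95 TPM in control. The windows overlapped, and the difference was 0.83 with an interval from -0.0035 to 1.66 (unadjusted p = 0.0508). The thyroid hormone receptor Thra differed by 0.05 (-0.32 to 0.42) and its target Klf9 by -0.08 (-0.42 to 0.27). Ppara, the fatty acid sensing receptor, was at 1.33 ± 0.237 and 1.44 ± 0.175 TPM, and Nr3c1, the glucocorticoid receptor, differed by -0.13 (-0.51 to 0.24). The intervals of Thra, Klf9 and Nr3c1 do not reach a 1.5-fold difference in either direction, 0.59 on the log2 scale, and that of Dio3 does.

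The list medians farthest from 0 belonged to genes with wide intervals. Interferon-stimulated and antigen presentation genes had a median of -0.20, with 26 of 28 lower, 6 of them without overlap (beside 4.15% of all genes) and 0 at an unadjusted p under 0.05. Only 7 of the 28 stayed within 1.5-fold. The mean deviation of the list was 0.14, 0.07 and 0.04 in PFOS P1-7, -0.05, -0.13 and -0.30 in PFOS P8-14, and -0.23, 0.84 and -0.38 in control. The windows did not overlap, but the controls spanned a wider range than both, with control replicate 2 the highest library.

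Ifit3, an antiviral effector, carried the lowest value of that list, at 8.87, 18.1 and 8.04 TPM in PFOS P1-7, 8.57, 5.43 and 4.93 TPM in PFOS P8-14, and 5.73, 25.5 and 3.86 TPM in control. Its difference of -0.74 had an interval from -1.98 to 0.50. Isg15, a ubiquitin-like modifier, was at 6.25, 7.41 and 7.47 TPM in PFOS P1-7, 3.71, 6.24 and 4.66 TPM in PFOS P8-14, and 7.89, 23.1 and 2.71 TPM in control (difference -0.47, unadjusted p = 0.389). The exposed libraries varied less than the controls in both genes. The median of the list was -0.17 within Ttr-high and -0.34 within Ttr-low libraries.

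Meningeal fibroblast and collagen genes had a median of 0.23, with 20 of 21 higher and 0 at an unadjusted p under 0.05, and 2 within 1.5-fold. The median was 0.0081 without PFOS P8-14 replicate 1, and 0.15, 0.36 and 0.41 without PFOS P1-7 replicate 2, PFOS P1-7 replicate 1 and PFOS P8-14 replicate 3. The mean deviation of the list was 0.24, -0.51 and 0.0022 in PFOS P1-7, 0.64, 0.15 and -0.27 in PFOS P8-14, and between -0.22 and 0.03 in control. PFOS P8-14 replicate 1 was the highest library and PFOS P1-7 replicate 2 the lowest. The median was 0.28 within Ttr-high and 0.09 within Ttr-low libraries. Fmod, a collagen-binding proteoglycan, was at 6.36, 2.69 and 5.33 TPM in PFOS P1-7, and 13.1, 6.81 and 5.98 TPM in PFOS P8-14, beside 6.22, 7.11 and 4.02 TPM in control (difference 0.72, unadjusted p = 0.0522).

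The same late-exposed library stood out in Calb2, calretinin, which marks interneurons, immature granule neurons and thalamic cells. Calb2 was at 78.5, 62.0 and 50.8 TPM in PFOS P1-7, 150.2, 92.7 and 73.3 TPM in PFOS P8-14, and 119.9, 112 and 83.6 TPM in control. The difference of 0.67 (SE 0.254, unadjusted p = 0.0247) was 0.39 without PFOS P8-14 replicate 1. The mean deviation of the 18 thalamus and habenula markers was 0.42 in that library and between -0.10 and 0.01 in the other exposed ones. Calb2 is itself a member of that list, so the mean contains its value. The part of neighbouring tissue in the Calb2 value was not tested.

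**Figure D5:**
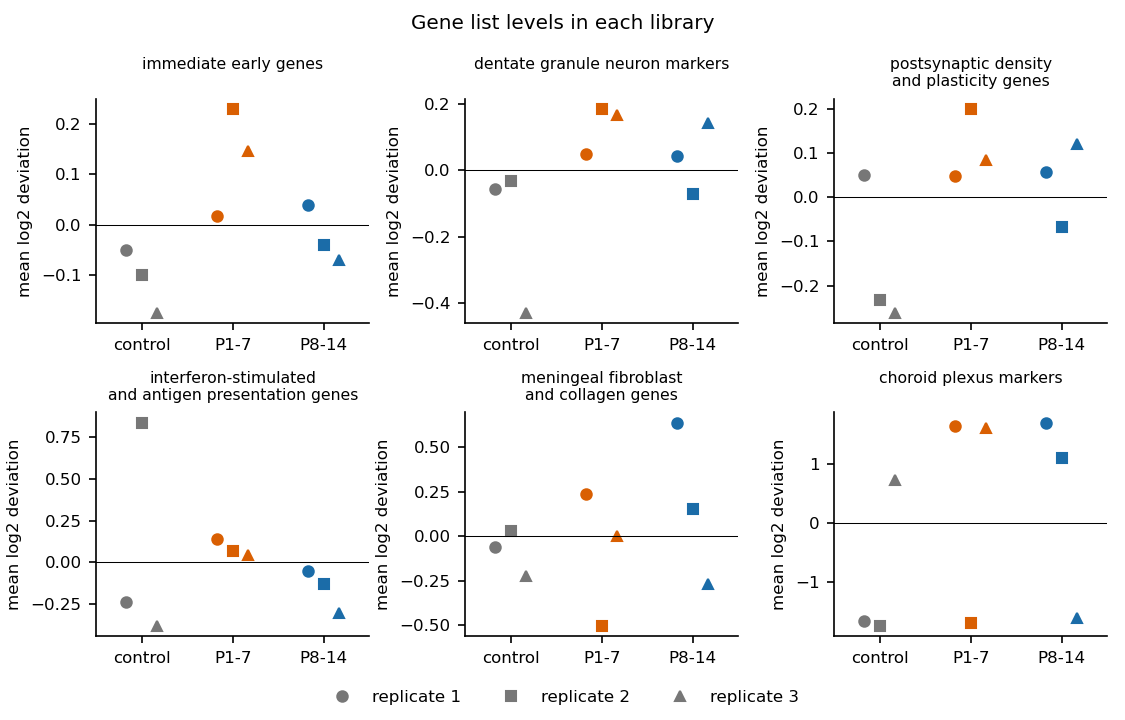
Each panel shows a gene list's mean log2 deviation from its average over the 9 libraries, by group and replicate. The immediate early genes are highest in PFOS P1-7 replicates 2 and 3 (0.23 and 0.15), the interferon-stimulated genes in control replicate 2 (0.84), and choroid plexus markers divide every group.

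Members of the blood, matrix and microglia lists completed those that passed an unadjusted p of 0.05 in limma. The most negative blood cell gene, at -2.80, was also the most negative of all tested genes but did not pass. Alas2, the erythroid enzyme of haem synthesis, was at 9.2, 11.8 and 13.7 TPM in PFOS P1-7, 10.7, 6.55 and 6.43 TPM in PFOS P8-14, and 11.9, 14.8 and 11 TPM in control (difference -0.52, unadjusted p = 0.0294). Has3, a hyaluronan synthase of the brain matrix, was at 3.56, 3.05 and 3.59 TPM in PFOS P1-7, 1.95, 2.53 and 2.2 TPM in PFOS P8-14, and 2.82, 1.87 and 2.41 TPM in control (difference -0.45, unadjusted p = 0.0161). Pf4, a chemokine of platelets and border macrophages, was at 2.4 ± 0.875 TPM in PFOS P1-7, 3.94 ± 1.11 in PFOS P8-14 and 3.27 ± 0.534 in control (difference 0.55, unadjusted p = 0.0452). Has3 did not overlap between the windows, and Alas2 and Pf4 did. Of the 41 lists, 31 had no member past that p.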

How the data were processed

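RNA was sequenced from 9 hippocampus samples, 3 per group. The submitters' processing notes name RSEM 1.3.3, STAR 2.5.3a, fastp 0.21.0, bcl2fastq and build mm10. Libraries were stranded, per the labels' protocols. The authors deposited TPM per gene symbol, already scaled for length and library. TPM keep no depth, so no counting error could be given. The log2 values were computed here as log2(TPM + 1) from the deposited TPM, with a pseudocount of 1, which understates differences of low genes.

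Of 23412 symbols, the 14336 that reached 1 TPM in 3 or more of the 9 samples were tested. Of these, 24 had values identical to another symbol. All 9 samples entered a limma 3.58.1 model (R 4.3.3) with a mean per group and moderated variances with a trend, so the controls help set the spread. Two-sided p-values were adjusted over all genes by the Benjamini-Hochberg method. Libraries with at least 1000 TPM of Ttr were called Ttr-high. Alternatives were other pseudocounts, filters, scalings, covariates, variance settings and left-out libraries.

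The members and the 41 gene lists were chosen with earlier results of these data known. Picked by rule were the 12 genes of smallest p per direction, up to 3 members per list, and a set of reference genes. Also picked were the 8 of largest difference per direction among genes without overlap and with a mean of at least 5 TPM. Not all of the picked genes are described in the text. Predicted genes were left out. Trib1, Dusp5, Dusp6, Junb, Egr2, Egr3, Nr4a3, Ptgs2, Homer1, Jun, Fosb, Jund, Clk4, Rbm3, Cirbp, Prox1 and Ifit3 were named after their values were seen. The labels do not say whether replicate numbers pair samples, and the main model did not pair them. Gene positions are from RefSeq. Figures were drawn with matplotlib 3.10.9.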

Additional observations from a re-analysis of the deposited data

How the results depend on the processing

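No gene passed an adjusted p of 0.05 in any of the 24 alternatives, of which the smallest adjusted p was 0.103, without PFOS P8-14 replicate 1. With no gene called, no called direction could reverse. Some list medians changed sign between settings, such as those of CA1 and subiculum markers (-0.12 to 0.07) and choroid plexus markers (-1.1 to 0.83). The median of the immediate early list stayed below 0. The count of genes without overlap was set by scaling and by single libraries. Genes higher in PFOS P8-14 numbered 420 with median-of-ratios scaling, 427 with quantile normalization and 410 after removal of the length and GC trend (added after seeing the data), against 273, and genes lower numbered 377 with quantile normalization, against 595. Leaving out a library gave 595 to 2115 lower and 273 to 1010 higher, 3 to 13 immediate early genes at an unadjusted p under 0.05 (against 9) and a median of that list between -0.25 and -0.12; fewer samples make separation easier.

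Genes at an unadjusted p under 0.05 (91 lower, 67 higher) numbered 178 and 178 with no filter, 144 and 97 in the 6 exposed samples alone, 144 and 94 without the variance trend, 381 and 163 with array weights, 302 and 154 without PFOS P1-7 replicate 1, 52 and 51 without PFOS P1-7 replicate 3, 159 and 106 without control replicate 1, and 281 and 214 with the choroid plexus covariate and replicate block. The cause of these changes was not tested. With the replicate block alone 0 genes were called, 144 were lower and 124 higher, and 10 immediate early genes were lower. With each group's mean removed, same-numbered early and late samples correlated over genes at 0.53, -0.36 and -0.29. With 3 samples a group, these values cannot show whether the numbers pair samples. Precision is limited by 3 samples a group and by unknown depth.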
